A study of Rattus norvegicus with 8 samples.

Results

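Genes grouped as major secretory proteins of the rat ventral prostate were followed by 10 gene names in the prostates of TRAP rats. These rats carry an oncogene expressed in the prostate epithelium. The names were Andpro, Scgb1d2, Scgb1d4, Scgb2a1, Sbp, Pbsn, Msmb, Azgp1, Spink3 and Pigr. The names were themselves chosen with earlier results of these data known. Given the names, probes were taken by gene name or older alias, without use of their values, which gave 12 of the 41012 probes on the array. Of these names, 9 passed the filter on dim probes among 23208 genes tested, and Spink3, whose alias Spink1 was included, did not. Each array compared a TRAP rat in Cy5 with a reference in Cy3, the normal ventral prostate of male F344 rats aged 6 weeks. In this reference Azgp1 was dim, at Cy3 intensities of 251.6 to 390.2, and Spink3 and Spink1 were not well above background. The name of the group thus does not mean that each gene was bright there. The TRAP rats were heterozygous males, given as SD strain in the labels, and were 15 weeks old. From 3 weeks of age, 4 control rats had basal diet and tap water, and 4 rats drank telmisartan, an angiotensin II receptor blocker, at 10 mg/kg per day for 12 weeks. The study divided 36 rats into 3 groups, of which a lower dose of 2 mg/kg is not analysed here. The treatment field of the drug-treated samples mentions the lower dose as well, and the design text assigns the arrays to 10 mg/kg per day.

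The ventral lobe of the rat prostate secretes most of its protein as prostatein, also called prostatic steroid-binding protein, in which the secretoglobin chains C1 and C2 each pair with the chain C3. Secretion of prostatein, spermine binding protein and probasin depends on androgen, and these transcripts fall after castration. The probasin promoter is also the element that drives the SV40 T antigen transgene of TRAP rats in the prostate epithelium, so that the gene Pbsn shares its promoter with the oncogene in both groups of rats. The F344 reference lacks the transgene and differs from the TRAP rats in strain and age, and these differences cannot be told apart in a ratio over it.

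The probes whose signal carries the results are given 5′ to 3′, since a few of these genes belong to families of similar sequence. Capitals mark a run of 15 bases that the Andpro probe shares with another probe on the array, one for cingulin (Cgn). No other probe shown here shares a run of 15 bases with any other probe.
Andpro: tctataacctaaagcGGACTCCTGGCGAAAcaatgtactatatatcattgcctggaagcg
Scgb1d2: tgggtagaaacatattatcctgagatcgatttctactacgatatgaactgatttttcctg
Scgb1d4: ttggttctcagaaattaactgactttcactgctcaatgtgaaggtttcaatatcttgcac
Scgb2a1: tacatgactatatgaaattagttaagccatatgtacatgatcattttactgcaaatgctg
Scgb2a2: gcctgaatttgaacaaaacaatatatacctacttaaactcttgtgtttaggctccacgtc
Sbp: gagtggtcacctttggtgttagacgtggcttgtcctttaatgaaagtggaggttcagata
Pbsn: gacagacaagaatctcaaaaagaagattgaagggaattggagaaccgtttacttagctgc
Msmb: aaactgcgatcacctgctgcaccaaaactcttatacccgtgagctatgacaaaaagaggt
Azgp1: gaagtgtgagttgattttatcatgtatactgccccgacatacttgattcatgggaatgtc
Scgb2a2 is not one of the 10 names and is shown because its naming has changed. The probe annotated as Scgb2a2 on the array carries the transcript that RefSeq's GRCr8 annotation names Scgb2a1, with Psbpc3 and Scgb2a2 as synonyms. The transcript of the probe annotated as Scgb2a1 was matched to the table by symbol alone. Both probes were therefore measured, under the names the array gives them, and which of them reads the chain C3 was not settled.

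Each array carried 45018 spots. Between 59.2% and 76.8% of gene spots were well above background in Cy5 (64.7% to 76.8% in control and 59.2% to 68.1% in telmisartan rats) and between 48.2% and 52.6% in Cy3. The 8 arrays lay on 2 slides, each with 2 rats of each group, but control rats took array positions 3 and 4 and telmisartan rats positions 1 and 2 on both slides, so position and treatment cannot be told apart. None of the 96 spots of the 12 probes was saturated in either channel. The scanner had read each slide at a high and a low gain, and the low gain reading, scaled up, supplied 56 of the 96 Cy3 and 37 of the 96 Cy5 values. In Cy3 this applied to all 8 arrays for Andpro, Scgb1d2, Scgb1d4, Scgb2a1, Sbp, Pbsn and Msmb. Ratios below are log2 of Cy5 over Cy3 after background correction and loess normalization within arrays. Intensities are mean spot signals before correction, except in the sums of cell type markers, and they are not on one scale in the 2 dyes.

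The prostatein chains C1 and C2 stood far below the reference in every rat. Scgb1d2, the chain C1, gave Cy3 intensities of 264250 to 329320 on the 8 arrays. In Cy5 its intensity was 8450.1, 19040, 15208 and 16233 in control rats 102, 103, 104 and 106, and 15842, 38619, 21268 and 37916 in telmisartan rats 302, 303, 305 and 306. The log2 ratios were -7.60, -6.56, -6.99 and -6.93 in the control rats and -6.58, -6.11, -6.30 and -5.87 in the telmisartan rats, in the same order. Control rat 102 was the lowest of the 8, and control rat 103 lay within the range of the telmisartan rats, so the groups overlapped by that rat. The control mean was -7.02 ± 0.43 (SD, n = 4), a 130.0-fold lower signal than the reference, which was the second lowest level among all genes tested. In bulk tissue, fewer secretory cells and less RNA per cell cannot be told apart, here and in all levels that follow.

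Scgb1d4, the chain C2, gave Cy3 intensities of 246960 to 367720 and Cy5 intensities of 51688 to 86001 in control and 74639 to 130210 in telmisartan rats. Its log2 ratios were -5.19, -4.76, -4.46 and -4.87 in control and -4.23, -4.34, -4.55 and -4.41 in telmisartan rats. Control rat 104 lay among the treated rats, and the other control rats lay below all of them. The control mean was -4.82 ± 0.30 (SD, n = 4).

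Scgb2a1 gave Cy3 intensities of 83603 to 104650 and Cy5 intensities of 13420 to 26059 in control and 15702 to 35442 in telmisartan rats. Its log2 ratios were -5.20, -4.52, -5.03 and -4.90 in control and -4.91, -4.57, -4.60 and -4.37 in telmisartan rats. Rats of both groups were interleaved, with control rat 102 lowest and telmisartan rat 306 highest. The probe named Scgb2a2 went the other way, with Cy3 intensities of 330.3 to 393.6 and Cy5 intensities of 10152 to 33752, and its ratio was 3.54 ± 0.23 in control and 4.07 ± 0.42 in telmisartan rats (SD, n = 4 each). The 2 probes that have carried the name Scgb2a1 thus lay on opposite sides of the reference in all 8 rats.

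Andpro, an androgen regulated 20 kDa protein in the array's annotation, had the lowest level over the reference of all 23208 genes in control rats. Its Cy3 intensity was 317030 to 364230, while its Cy5 intensity was 2729.6, 6478.9, 2485.8 and 4161.2 in control rats 102, 103, 104 and 106 and 2198.2, 10098, 4577.6 and 5556.9 in telmisartan rats 302, 303, 305 and 306. The log2 ratios were -9.33, -8.20, -9.80 and -9.26 in control and -9.67, -8.22, -8.90 and -8.86 in telmisartan rats. One rat of each group, 103 and 303, stood above the others of its group, both on slide 1, and the groups overlapped over nearly their whole range. The control mean was -9.15 ± 0.68 (SD, n = 4), or 568-fold below the reference.

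Msmb, beta-microseminoprotein, a small cysteine-rich protein of seminal plasma, had log2 ratios of -6.43, -6.25, -6.76 and -6.79 in control and -6.72, -6.75, -6.69 and -6.70 in telmisartan rats. The 4 treated rats lay close together, between -6.75 and -6.69, and inside the range of the control rats. Cy3 intensities were 30342 to 36114, and Cy5 intensities were 1816.7 to 2341.1 in control and 1554.8 to 2241.0 in telmisartan rats. In control rats its mean of -6.56 ± 0.26 (SD, n = 4) was the fifth lowest of all genes tested.

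Sbp, spermine binding protein, kept a brighter Cy5 spot, at 111660 to 158690 in control and 139830 to 223090 in telmisartan rats, beside Cy3 intensities of 328030 to 409230. The log2 ratios were -4.26, -4.30, -4.11 and -4.17 in control and -3.94, -4.04, -3.95 and -3.71 in telmisartan rats. All 4 treated rats lay above all 4 control rats. The spread was narrow in both groups, with an SD of 0.09 in control and 0.14 in telmisartan rats.

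Pbsn, probasin, a secreted lipocalin, had Cy3 intensities of 29184 to 35844. Its Cy5 intensities were 31460, 46767, 28160 and 49328 in control rats and 22082, 43766, 29707 and 36635 in telmisartan rats, so before normalization both channels gave signals of like size. After loess the log2 ratios were -2.46, -1.96, -2.96 and -2.33 in control and -2.98, -2.59, -2.88 and -2.69 in telmisartan rats. Control rat 104 lay with the treated rats, and the other control rats lay above all of them.

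Azgp1, zinc-alpha-2-glycoprotein, a secreted protein with a fold like that of class I histocompatibility molecules, was the 1 member of the 9 tested that stood more than 2-fold above the reference in every rat. Its Cy3 spots were dim, though well above background on all 8 arrays, at 251.6 to 324.0 in control and 319.9 to 390.2 in telmisartan rats. Its Cy5 intensities were 10824 to 28348 in control and 21503 to 34618 in telmisartan rats. The log2 ratios were 4.16, 3.78, 3.63 and 4.11 in control and 4.28, 3.98, 3.98 and 4.01 in telmisartan rats. Both groups lay above the reference by a mean of 3.92 ± 0.26 and 4.06 ± 0.15 (SD, n = 4 each), and they overlapped.

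Pigr, the receptor that carries polymeric IgA across epithelia into secretions, lay near the reference. Its log2 ratios were -0.01, 0.25, -0.46 and -0.58 in control and -0.68, 0.33, -0.21 and -0.75 in telmisartan rats. Rats 103 and 303 were the highest of their groups, as for Andpro. Cy3 intensities were 919.5 to 1065.3 and Cy5 intensities 2473.8 to 8329.1 over the 8 arrays.

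Spink3 and Spink1, inhibitors of serine proteases, were not measurable. The probe named Spink3 had Cy3 intensities of 153.6 to 178.4 and Cy5 intensities of 93.0 to 139.3 and was not well above background on any array in either channel. Of the 2 Spink1 probes, one was likewise at background throughout, and the other was well above background in Cy5 on 1 array, that of control rat 104. No ratio is given for these 3 probes. GRCr8 names the transcript of the Spink3 probe Spink1l.

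**Figure D1:**
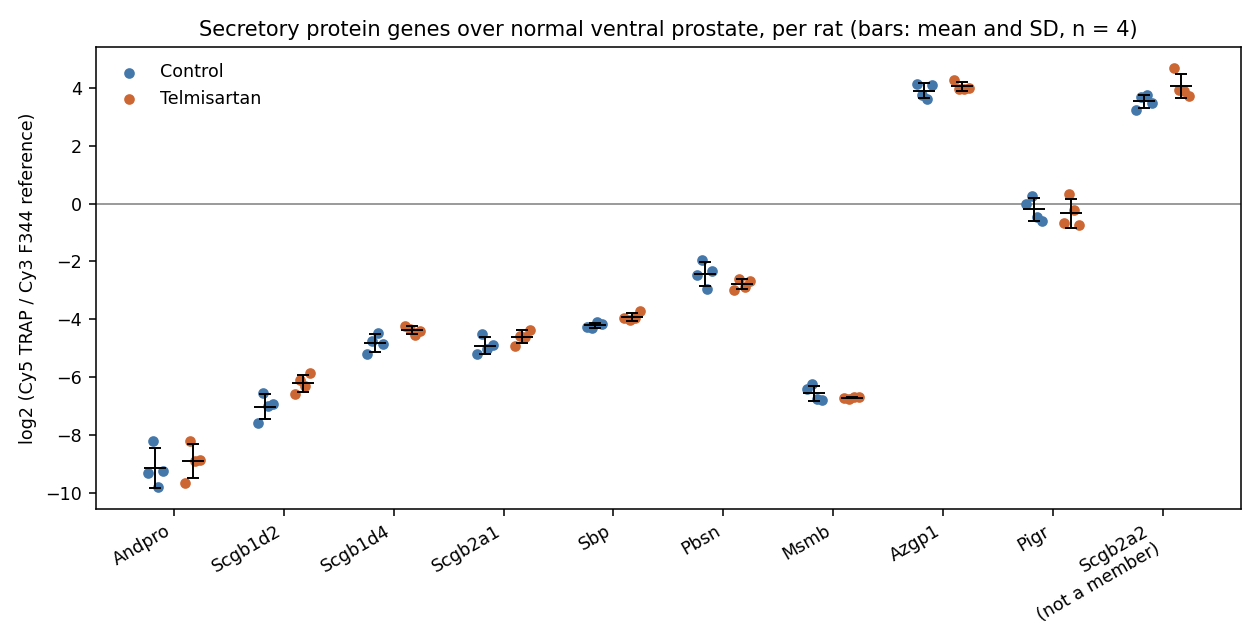
Log2 ratio of Cy5 (TRAP rat) over Cy3 (F344 reference) after loess, for the 9 secretory genes tested and for the probe named Scgb2a2, which is not a member. Points are rats (4 control, 4 telmisartan) and bars show mean and SD; 7 genes lie below the reference in every rat, Azgp1 and Scgb2a2 above it, and Pigr near 0.

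**Figure D2:**
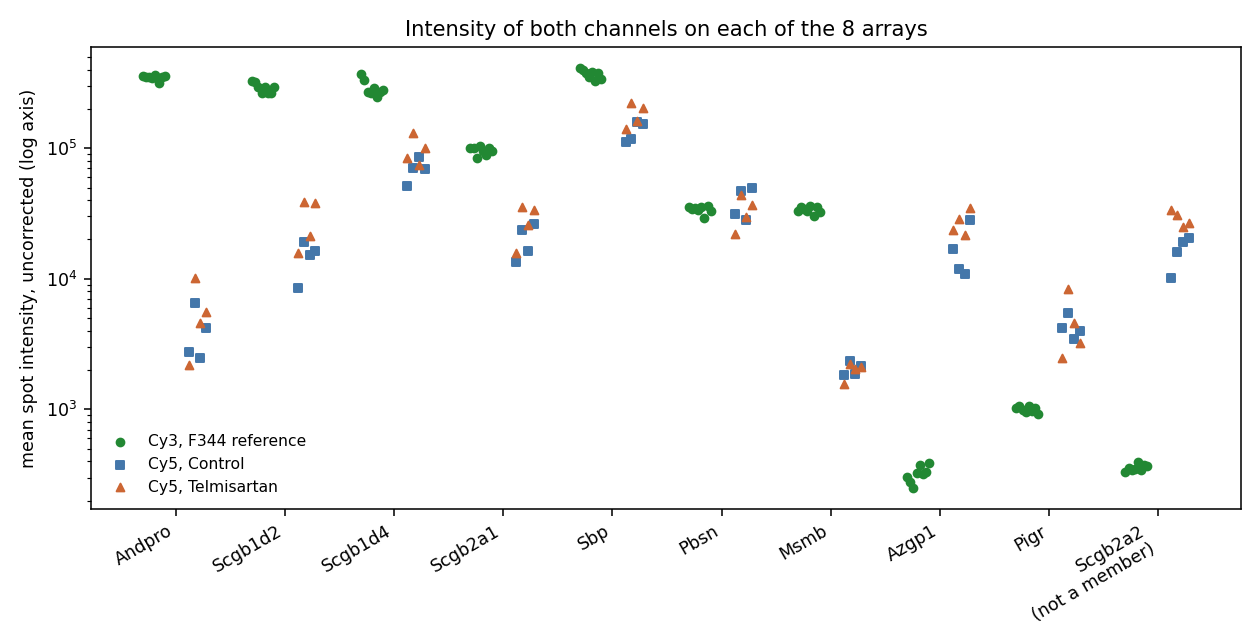
Mean spot intensity before correction, on a log axis, in Cy3 (reference, 8 arrays) and Cy5 (4 control and 4 telmisartan rats). Within each probe the Cy3 values spread less between arrays than the Cy5 values. The highest Cy3 value was 1.15 times the lowest for Andpro, the narrowest, and 1.55 times for Azgp1, the widest. Probes differ in brightness for the same amount of RNA, and the dyes are not on one scale, so columns are not to be compared with each other.

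Over all 8 rats, 7 of the 9 genes tested lay more than 2-fold below the reference in every rat, against 3.29% of the 23208 genes. These were Andpro, Scgb1d2, Msmb, Scgb2a1, Scgb1d4, Sbp and Pbsn. The count takes Scgb2a1 by the array's name; with the probe named Scgb2a2 in its place, whose transcript GRCr8 names Scgb2a1, 6 would lie below and 2 above the reference by 2-fold in every rat. The first 5 of them lay more than 16-fold below it in every rat, as did 0.19% of all genes. Azgp1 was above the reference by 2-fold in every rat, where 3.73% of all genes were, and also by 8-fold, as were 0.25%. Ordered by the control mean, the lowest was Andpro, then Scgb1d2 and Msmb, whose rats overlapped, then Scgb2a1 and Scgb1d4, whose means of -4.91 and -4.82 differed by less than the SD of either. Sbp at -4.21, Pbsn at -2.43, Pigr at -0.20 and Azgp1 at 3.92 followed, each without overlap with its neighbours among control rats. No test was made of the level against the reference, because every array carried the reference in the same dye and it has no replicates of its own kind in the design.

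The size of these ratios depended on the normalization within arrays, their direction mostly not. For Azgp1 and Scgb2a2, which were dim in Cy3, the size also moved with the background correction. With no background correction their control means were 3.54 and 3.28, and by the scanner software's own ratio they were 4.37 and 3.81. With median centring in place of loess, the control mean of Andpro was -7.78 ± 0.68, or 219.5-fold below the reference, that of Scgb1d2 -5.61 ± 0.50, or 48.8-fold below, and that of Msmb -5.28 ± 0.21 (SD, n = 4 each). Scgb2a1 then had -3.53, Scgb1d4 -3.35, Sbp -2.71 and Pbsn -1.05, and Azgp1 had 5.10. Pigr changed sign, from -0.20 to 0.99. Over the arrays, the ratios of these 9 genes moved upward by 1.08 to 2.03, and the median of all genes tested in control rats moved from 0.06 to 0.67. Members below the reference by 2-fold in every rat then numbered 6, against 1.03% of all genes, and all genes above it by 2-fold made up 24.4%.

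**Figure D3:**
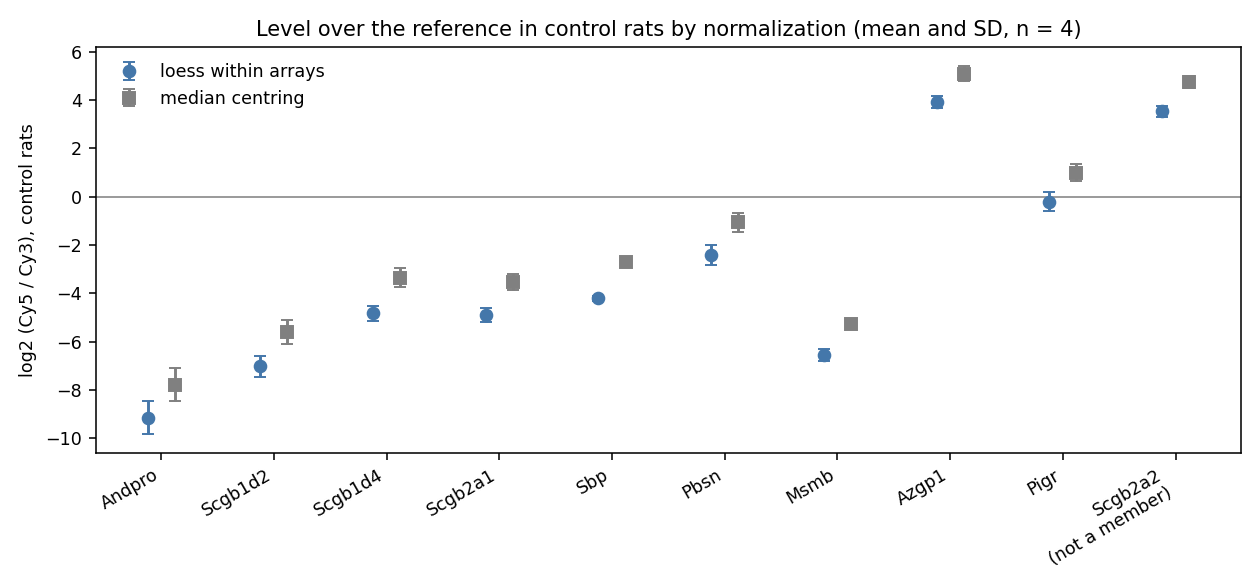
Mean log2 ratio in the 4 control rats with SD, under loess within arrays (circles) and median centring (squares). The 2 normalizations keep each gene on its side of 0 except Pigr, which moves from -0.20 to 0.99.

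Telmisartan against control asks whether the drug altered the secretory programme of the transgenic prostate. No gene on the array passed an adjusted p of 0.05 by limma (0 of 23208, or 0%), so none of the 9 secretory genes did. At an unadjusted p under 0.05, 3 of the 9 were higher under telmisartan, where 2.74% of all genes were, and none of the 9 was lower, where 2.08% were. The 3 were Scgb1d2, Scgb1d4 and Sbp. Of all genes, 49.4% had a positive difference, and 6 of the 9 members did. The median difference was 0.24 over the 9 members and -0.0019 over all genes tested.

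Scgb1d2 had the largest difference of the members, 0.81 on the log2 scale (SE 0.22, 95% interval 0.32 to 1.30), or 1.75-fold, with an unadjusted p of 0.0045 and an adjusted p of 0.922 by limma. Its value was above the control mean in 4 of 4 treated rats, and it was 0.73 within slide 1 and 0.88 within slide 2. Without control rat 102, the lowest, the difference was 0.61. Scgb1d4 differed by 0.44 (SE 0.15, 95% interval 0.10 to 0.78), with an unadjusted p of 0.0155 and an adjusted p of 0.981 by limma, and the difference was 0.70 within slide 1 and 0.19 within slide 2. Sbp differed by 0.30 (SE 0.10, 95% interval 0.08 to 0.53), with an unadjusted p of 0.0142 and an adjusted p of 0.981 by limma, and it was 0.29 and 0.31 within the slides. Sbp was the 1 member whose groups did not overlap, higher under telmisartan, as for 1.5% of all genes, and none of the 9 was lower without overlap, as for 1.23%.

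The other members had intervals that covered 0. The difference was 0.30 for Scgb2a1 (95% interval -0.06 to 0.66), 0.24 for Andpro (-0.57 to 1.04) and 0.14 for Azgp1 (-0.17 to 0.46). It was -0.36 for Pbsn (-0.79 to 0.07), -0.16 for Msmb (-0.44 to 0.13) and -0.13 for Pigr (-0.71 to 0.45). Single rats moved several of these by more than 1.5 times. Andpro was 0.55 without control rat 103, 0.49 without telmisartan rat 302, 0.018 without control rat 104 and 0.0034 without telmisartan rat 303. Azgp1 was 0.22 without control rat 102, 0.0465 without control rat 104 and 0.0701 without telmisartan rat 302, and Msmb was -0.0554 without control rat 103. Pbsn was -0.20 without control rat 103. Pbsn without control rat 104 was -0.53 (unadjusted p = 0.0073, adjusted p = 0.9997 by limma), against -0.36 over all rats. On the log2 scale this was a larger move than that without control rat 103, though just under 1.5 times. Pigr ranged from -0.35 without telmisartan rat 303 to 0.0217 without control rat 103, and it was also above 0 without telmisartan rat 306. Pbsn was below the control mean in 4 of 4 treated rats, with a difference of -0.57 within slide 1 and -0.14 within slide 2. For Azgp1 the Cy5 channel alone, quantile normalized, gave 0.68 with an unadjusted p of 0.0315 by limma, against 0.14 for the ratio. Its Cy3 channel alone, quantile normalized, was higher by 0.43 on the arrays of telmisartan rats. The probe named Scgb2a2 differed by 0.53 (95% interval 0.07 to 0.98), with an unadjusted p of 0.0275 and an adjusted p of 0.981 by limma. Its difference was 0.84 within slide 1, 0.21 within slide 2 and 0.32 without telmisartan rat 302.

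**Figure D4:**
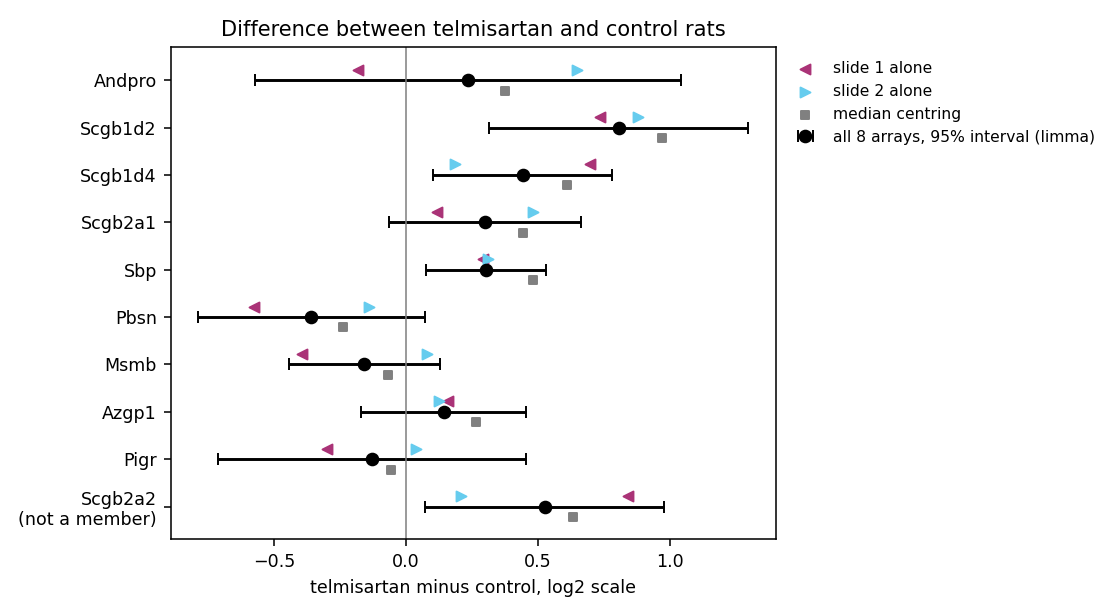
Telmisartan minus control on the log2 scale for the 9 secretory genes and the probe named Scgb2a2, with the 95% interval over all 8 arrays (limma), the value within each slide (triangles) and the value under median centring (squares). Scgb1d2, Scgb1d4, Sbp and Scgb2a2 have intervals above 0 before adjustment over all genes, and Andpro, Msmb and Pigr have slides on opposite sides of 0.

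Other cell types and the epithelium itself were read from marker lists beside these differences. Luminal epithelial markers, 12 tested, had a mean log2 ratio of 0.06 to 0.35 in control and 0.07 to 0.26 in telmisartan rats, and 4 were higher and 8 lower. Their summed Cy5 intensity was 736264 to 880404 in control and 762522 to 834857 in telmisartan rats. The marker sums are of Cy5 after background correction and quantile normalization between arrays, unlike the single intensities above. Macrophage markers were lower under telmisartan for 8 of 10, with a summed intensity of 177229 to 366508 in control and 126653 to 329392 in telmisartan rats, and T cell markers for 10 of 10, with 13508 to 79543 and 10492 to 54148. Basal epithelial markers were higher for 6 of 7 and smooth muscle markers for 7 of 9, where 49.4% of all genes tested were higher. The groups overlapped in each of these sums, and the part of cell composition in the differences of Scgb1d2, Scgb1d4 and Sbp was not tested. Seminal vesicle contamination was looked for with 7 markers on the array. Of these, Svs1, Svs3a, Svs5 and Svs6 were well above background in Cy5 on 0 arrays. Semg1, Svs4 and Svs3b were detected in Cy5, at control means of -6.83, -4.50 and -0.72. The reference was brighter for 2 of them before correction. Semg1 had 24887 to 30184 in Cy3 and 991.5 to 1612.3 in Cy5, and Svs4 had 14258 to 17714 and 2771 to 7632.1. Svs3b had 259.6 to 331.8 in Cy3 and 386.0 to 687.2 in Cy5. The summed Cy5 intensity of the seminal vesicle markers was 5091 to 7327 in control and 6992 to 11616 in telmisartan rats, which overlapped. Svs4 was higher by 0.63 under telmisartan with no overlap between the groups (unadjusted p = 0.0054, adjusted p = 0.929 by limma), while Semg1 differed by -0.11 and Svs3b by 0.05. The part of seminal vesicle RNA in the differences of Scgb1d2, Scgb1d4 and Sbp was not tested.

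Correlations between members across rats differed widely. Of the 36 pairs of the 9 genes, 19 had a positive Pearson correlation over the 8 rats after loess. The median r was 0.02, and 5 had an unadjusted exact permutation p under 0.05. These figures depended on the normalization. Under median centring r was higher for each of the 36 pairs and positive for most, from -0.16 (Azgp1 with Pigr) to 0.959 (Scgb1d2 with Scgb2a1). After Benjamini-Hochberg adjustment over the 36 pairs, 1 pair remained, Scgb1d2 with Scgb2a1, at r = 0.922 (exact permutation p = 0.0012, adjusted 0.0429, two-sided). Spearman's rho for this pair was 0.905 (exact permutation p = 0.0046, adjusted 0.164). Its r was 0.921 with slide means removed and 0.940 with group means removed, and without control rat 102 and telmisartan rat 306, the farthest from the median of Scgb1d2, it was 0.804. Both genes were measured on the same arrays and share their normalization, and under median centring r was 0.959. Scgb1d2 with Scgb1d4 gave r = 0.738 (exact permutation p = 0.0357, adjusted 0.291), and 0.383 with group means removed. Scgb1d2 with Pbsn gave r = -0.16 (exact permutation p = 0.708), but 0.515 with group means removed and 0.191 under median centring.

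**Figure D5:**
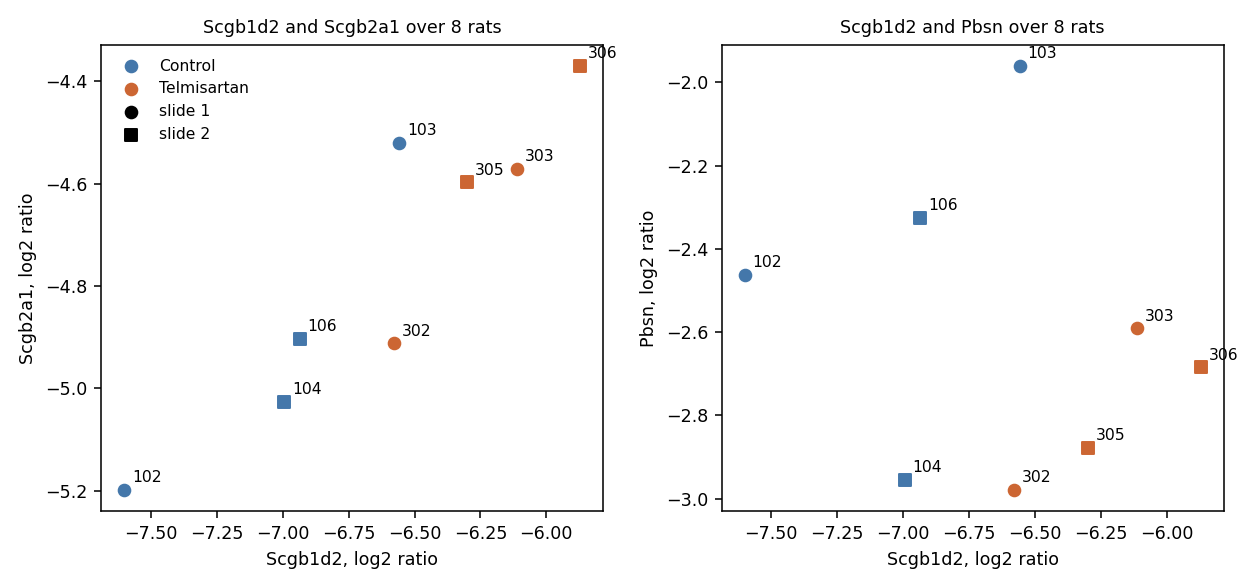
Log2 ratios of Scgb1d2 against Scgb2a1 (left) and against Pbsn (right) in the 8 rats, coloured by group, with circles for slide 1 and squares for slide 2 and each rat's number beside its point. Scgb1d2 and Scgb2a1 rise together from control rat 102 to telmisartan rat 306, and Scgb1d2 and Pbsn do not.

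The genes whose ratios followed each member most closely over the 8 arrays, among 10051 genes, were found by the highest Pearson r. For Scgb1d2 these were Acot1 (0.973) and Slc26a11 (0.964), for Scgb2a1 Ltbp3 (0.978) and Afg3l2 (0.978), and for Scgb1d4 Rab40c (0.948) and Prepl (0.930). Andpro was closest to Bcorl1 (0.972) and Map3k2 (0.954), Sbp to Fbxo44 (0.955) and Tmem53 (0.948), and Pbsn to Nsun6 (0.929) and Bex3 (0.920). Msmb was close to Fam118a (0.968), Azgp1 was closest to Klhl12 (0.939) and Rsrp1 (0.931), and Pigr to Hspa4 (0.966) and Dync1i2 (0.952). No member was among the 2 closest genes of another. These correlations are descriptions of 8 arrays that share their reference and normalization. Each was picked as among the highest of 10051, which by itself favours large values, and none was tested.

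Promoter sequence was compared because 7 of these genes stood below the reference together. RefSeq windows of 300 bases, from 250 before to 50 after the start, held 13 starts for these names in GRCr8. The androgen response half-site TGTTCT, on either strand, was in 3 of the 13, where 20.7% of 33469 such windows in the genome held it. They were those of Pbsn, 232 bases before the start, Msmb, 103 bases before it, and the gene that GRCr8 names Scgb2a1, 116 bases before it, whose transcript is read by the probe named Scgb2a2. The Pbsn window, at chrX:45807934-45808233 on the minus strand, is shown because the probasin promoter also drives the transgene, with the half-site in capitals.
Pbsn: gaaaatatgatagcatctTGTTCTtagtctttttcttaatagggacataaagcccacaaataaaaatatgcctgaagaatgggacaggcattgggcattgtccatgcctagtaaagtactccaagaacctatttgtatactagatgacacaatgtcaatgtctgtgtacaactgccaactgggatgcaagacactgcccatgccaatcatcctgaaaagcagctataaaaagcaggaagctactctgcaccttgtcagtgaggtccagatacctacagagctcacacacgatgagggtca
The windows of Scgb1d2, at chr1:215656661-215656960 on the minus strand, and Scgb1d4, at chr1:215755113-215755412 on the plus strand, are shown because both genes were higher at an unadjusted p under 0.05. They were identical at 221 of 278 aligned bases (79.5%), and capitals mark the 19 bases that lie in an identical run of at least 12.
Scgb1d2: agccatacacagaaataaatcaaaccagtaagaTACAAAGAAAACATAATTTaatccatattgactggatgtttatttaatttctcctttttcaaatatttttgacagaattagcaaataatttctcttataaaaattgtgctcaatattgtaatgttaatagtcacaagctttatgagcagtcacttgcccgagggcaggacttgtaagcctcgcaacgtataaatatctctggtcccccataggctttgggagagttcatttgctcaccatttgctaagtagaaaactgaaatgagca
Scgb1d4: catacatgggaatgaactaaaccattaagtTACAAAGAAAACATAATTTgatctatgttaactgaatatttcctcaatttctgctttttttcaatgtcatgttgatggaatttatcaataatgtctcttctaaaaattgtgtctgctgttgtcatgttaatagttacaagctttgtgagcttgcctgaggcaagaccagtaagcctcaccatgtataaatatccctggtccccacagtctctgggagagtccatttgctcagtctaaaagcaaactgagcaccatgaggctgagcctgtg
A match of a half-site is a description of these letters and not evidence of binding. Neither the Scgb1d2 nor the Scgb1d4 window holds these letters.

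Other secretory proteins of the prostate and accessory glands were measured for comparison with the members. Of 30 on the array, 17 passed the filter and were tested. Of these 17, 7 were more than 2-fold below the reference in every rat and 4 more than 2-fold above it, against 3.29% and 3.73% of all genes. The lowest in control rats were Semg1, which encodes a seminal clotting protein, at -6.83 ± 0.11, the kallikrein Klk1 at -6.10 ± 0.19 and its relative Klk1c8 at -6.01 ± 0.15 (SD, n = 4 each). The highest were the metalloproteinase Mmp7 at 7.29 ± 0.16, the secreted chaperone clusterin (Clu) at 4.31 ± 0.34 and the iron-carrier-binding lipocalin Lcn2 at 3.89 ± 0.12. Under telmisartan 6 of the 17 were higher and 11 lower, with a median difference of -0.06, and the 1 gene with an unadjusted p under 0.05 was the seminal vesicle gene Svs4.

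Genes of the androgen response in the prostate, 20 tested, had 14 higher and 6 lower under telmisartan, with a median difference of 0.07 and none past the adjusted threshold. Of all genes tested, 49.4% were higher. The smallest unadjusted p among them was that of the kinase gene Camkk2, which differed by 0.35 (SE 0.14, unadjusted p = 0.0298, adjusted p = 0.981 by limma). Secretory pathway machinery, 36 genes tested, had 20 higher and 16 lower and a median level of -0.52 in control rats, against -4.82 for the 9 members. Under median centring the machinery changed sign, to a median of 0.69, near the 0.67 of all genes tested, and the members had -3.35. The proliferation marker Mki67 stood at 3.19 ± 0.26 in control and 3.25 ± 0.16 in telmisartan rats (SD, n = 4 each).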

How the data were processed

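Arrays were 2-colour Agilent oligonucleotide arrays, 1 per rat, with RNA extracted with ISOGEN and amplified linearly per the labels' protocols, and read with Agilent Feature Extraction 9.1 per the file headers. The deposited scanner files give an uncorrected mean intensity and local background intensity per spot in each channel, and a log10 ratio that the authors' scanner software had background-subtracted and dye-normalized, per the file headers. The deposited series matrix holds log10 values that matched that ratio, Cy5 over Cy3, spot by spot, and had a column median of 0 on every array. Dyes were never swapped. The sources used here do not say whether the reference was 1 pool or how the tissue of each rat was sampled.

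Intensities were background-corrected by normexp (offset 50), normalized by loess within arrays with control spots at weight 0, and averaged per probe, using limma 3.58.1 in R 4.3.3. Outlier spots were left out. A probe was kept when its Cy5 spot was well above background on 4 arrays or more, and a gene with several probes was represented by the brightest. Telmisartan was compared with control over all 8 arrays by limma's moderated test, adjusted by Benjamini-Hochberg over 23208 genes. The test was checked on simulated data. Probe names were updated through RefSeq's GRCr8 table, by accession for 10735 probes, symbol for 5571 and older symbol for 3729, and the file's name was kept for 20977. Promoter sequences are RefSeq's, for GRCr8.

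The members and lists were chosen with earlier results of these data known. The genes named were all 10 members, up to 4 genes of each list by smallest p, the 3 highest and 3 lowest other secretory genes by level, Klk1, Mki67 and the 2 genes most like each member; some genes that the rule names are not reported here, and Scgb2a2 was added after its values were seen. Alternatives covered background correction, normalization, channel, filter, probe averaging, saturated and outlier spots, slide, variance model, array weights and each rat left out.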

Additional observations from a re-analysis of the deposited data

Results flagged for a closer look

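In 1 of the 20 groups of 4 rats looked at, 2 for each of 9 members and for the probe named Scgb2a2, a single rat lay far from the other rats of its group. Azgp1 in telmisartan rat 302 had a log2 ratio of 4.282, while the other treated rats lay between 3.98 and 4.01. The gap made up 0.908 of the range of the group, above Dixon's 95% limit for 4 values. Chance alone flags about 1 in 20 such groups.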

How the results depend on the processing

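No paired analysis was possible because the rats of the 2 groups share no number. The count of genes past an adjusted p of 0.05 by limma was 0 under all alternatives except when a rat was left out, where it ranged from 0 to 1. Without control rat 102, 1 gene was called higher, and without telmisartan rat 303, 1 other gene was called lower, and neither was a member. The number of members below the reference by 2-fold in every rat was 6 under median centring and 7 under every other alternative run. Of 250 differences recomputed for the 9 members and Scgb2a2, 245 kept their direction and their side of the threshold and 5 reversed, none of them past the threshold. Andpro was -0.18 on slide 1 alone, Msmb was 0.079 and Pigr 0.0399 on slide 2 alone, and Pigr ranged from -0.349 to 0.0217 with each rat left out, being above 0 without control rat 103 (0.0217) and without telmisartan rat 306 (0.0121). The level of Pigr in control rats reversed to 0.99 under median centring. Over all alternatives the difference of Scgb1d2 ranged from 0.61 to 0.98, that of Scgb1d4 from 0.19 to 0.70 and that of Sbp from 0.24 to 0.48. The cause of these changes was not tested. Spink3 and Spink1 were limited by signal at background.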
